A study of Homo sapiens with 4 samples.

Results

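The MAX network is a set of transcription factors that pair with MAX, or with the related protein MLX, through a basic helix-loop-helix leucine zipper. A total of 10 of its genes (MYC, MYCN, MAX, MXI1, MXD1, MXD3, MXD4, MNT, MGA and MLX) were followed here by their gene symbols, out of 53777 Ensembl gene rows in the expression table, and each symbol matched 1 row. RNA had been sequenced from NUGC3, an established human stomach cancer cell line, in 2 libraries labelled as a MYC knockdown (MYC_KD) and 2 labelled as wild type (WT). All 4 libraries came from this 1 cell line. The labels do not state how MYC was knocked down, for how long, or whether the WT cells received a control construct. They also do not say that replicates were grown separately, so a p-value here reflects only library-to-library spread, which may be technical.

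MYC and MYCN activate genes as heterodimers with MAX at the E-box, a DNA site with the core letters CACGTG. MXD1, MXI1, MXD3, MXD4 and MNT bind MAX at the same sites and recruit SIN3 and histone deacetylase corepressors, and MGA brings MAX into a Polycomb-type repressive complex. MLX is the MAX-like partner of the glucose-responsive factor MLXIP, and it also pairs with MXD1, MXD4 and MNT. MYC is a known driver of growth in stomach cancer, and its level relative to its antagonists is the classical reading of this network.

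Values are FPKM, fragments per kilobase of transcript and per 1e+06 fragments, so levels can be compared between genes per length. The number of fragments is not given. Relative depth was read from the most common product of low FPKM and transcript length, over short genes with 1 transcript. If that product stands for 1 fragment in each library, MYC_KD replicates 1 and 2 held 78.7% and 81.1% of the depth of WT replicate 1. WT replicate 2 then held 81.9%. All 10 epithelial markers examined were above 1 FPKM in every library, with sums of 6167 and 5585 FPKM in the MYC_KD libraries and 5292 and 5351 FPKM in the WT libraries. Of 13 markers of blood, endothelial and fibroblast cells, 12 were found in the table and only COL1A1 reached 1 FPKM, and PTPRC, HBB, VWF, COL3A1 and DCN were at 0 in all 4 libraries. The MYC_KD libraries lay further from each other than the WT libraries, with a median absolute log2 difference of 0.20 against 0.08 over the 12953 genes tested. Pairs of 1 MYC_KD and 1 WT library differed by 0.235 to 0.244, little more than the MYC_KD pair. MYC_KD replicate 1 also stood apart by 20 interferon-stimulated genes, which summed to 1566 FPKM there and 239.8 FPKM in MYC_KD replicate 2, against 261.9 and 258.8 FPKM in the WT libraries.

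MYC, the gene named as the target (ENSG00000136997, chromosome 8, 127735434 to 127741434, plus strand, GENCODE release 29 on GRCh38), had the highest level of the network in all 4 libraries. MYC RNA was 65.0 and 75.8 FPKM in MYC_KD replicates 1 and 2, against 82.9 and 82.0 FPKM in WT replicates 1 and 2. As deposited, both knockdown values lay below both WT values, by an uneven amount, at 0.788 and 0.920 times the WT mean. Column sums were also lower in both knockdown libraries, at 708058 and 674328 over all rows in MYC_KD replicates 1 and 2. In WT replicates 1 and 2 these sums were 739335 and 730732, so small changes depend on the scaling. With columns scaled to equal sums the groups of MYC overlapped, at a log2 change of −0.13 (limma adjusted p = 0.475). MYC averaged 70.4 ± 7.66 FPKM in MYC_KD and 82.4 ± 0.615 FPKM in WT (SD, n = 2 each). On the log2(FPKM + 1) scale MYC differed by −0.23 ± 0.10 (SE), with a 95% interval of −0.49 to 0.04, and did not pass 0.05 (limma adjusted p = 0.237 over all 12953 genes tested). The change was −0.34 without MYC_KD replicate 2 (limma adjusted p = 0.0210) and −0.12 without MYC_KD replicate 1 (limma adjusted p = 0.115), with the single knockdown library assumed to vary like the WT pair. The deeper drop was in the library with the high interferon-stimulated genes, and the part of that difference in the MYC value was not tested. By rank, MYC was the 1566th and 1246th highest gene in MYC_KD replicates 1 and 2 and the 1154th and 1166th highest in WT replicates 1 and 2. In RNA from whole cultures, fewer cells holding a transcript and less of it per cell cannot be told apart.

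MYCN, the paralog of MYC that is active in neural tumours (ENSG00000134323, chromosome 2, 15940564 to 15947007), was at or near 0. It was listed at 0.02 and 0 FPKM in the MYC_KD libraries and at 0.01 and 0 FPKM in the WT libraries. It did not reach the 1 FPKM in 2 libraries that the test required, and no fold is given. The third family member, MYCL, stood at 1.02 and 0.69 FPKM in MYC_KD and 1.29 and 0.90 FPKM in WT, so the groups overlapped and MYC made up nearly all MYC family RNA.

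MXI1, an MXD family repressor that opposes MYC (ENSG00000119950, chromosome 10, 110207605 to 110287365, plus strand), had the largest log2 change of the 9 members tested. It stood at 6.92 and 7.25 FPKM in MYC_KD replicates 1 and 2, against 14.2 and 13.6 FPKM in WT replicates 1 and 2. The groups were far apart, and unlike MYC the knockdown libraries were close to each other, at 0.497 and 0.521 times the WT mean. The averages were 7.085 ± 0.233 FPKM in MYC_KD and 13.9 ± 0.467 FPKM in WT (SD, n = 2 each). The log2 difference was −0.88 ± 0.10 (SE), with a 95% interval of −1.15 to −0.62. Its limma adjusted p of 0.0556 missed 0.05, but it was the smallest that any of the 12953 genes reached, shared by 147 genes. Only 1.71% of genes tested had a log2 change as low or lower. With limma, MXI1 passed 0.05 where only protein-coding genes were tested (adjusted p = 0.0431) and where a mean of at least 5 FPKM was required (adjusted p = 0.0465). It also passed with median of ratios scaling (adjusted p = 0.0489). It did not pass with equal column sums (limma adjusted p = 0.0523), quantile normalization (0.0550) or a pseudocount of 0.1 (0.0564). Nor did it pass with no mean trend (limma adjusted p = 0.0731), a replicate block (0.0789) or no filter on low values (0.145). Its log2 change lay between −0.96 and −0.80 over 13 alternatives, so its direction and size were kept. It was −0.91 in MYC_KD replicate 1 alone and −0.85 in MYC_KD replicate 2 alone, the second being the library without the high interferon-stimulated genes.

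MXI1 has 3 transcription starts in the promoter table used here, and the sequences around them are printed because MXI1 had the largest log2 change. Each runs from 250 bases before to 50 bases after the start (RefSeq, GRCh38.p14, plus strand), at chr10:110207355-110207654, chr10:110209981-110210280 and chr10:110225746-110226045, and capitals mark CACGCG, a weaker variant of the E-box.
MXI1 start 1: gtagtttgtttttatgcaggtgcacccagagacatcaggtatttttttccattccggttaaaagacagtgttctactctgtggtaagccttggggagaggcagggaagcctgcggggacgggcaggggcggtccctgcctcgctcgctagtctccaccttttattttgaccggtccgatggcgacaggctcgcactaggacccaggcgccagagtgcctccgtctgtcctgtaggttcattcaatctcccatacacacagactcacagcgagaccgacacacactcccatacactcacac
MXI1 start 2: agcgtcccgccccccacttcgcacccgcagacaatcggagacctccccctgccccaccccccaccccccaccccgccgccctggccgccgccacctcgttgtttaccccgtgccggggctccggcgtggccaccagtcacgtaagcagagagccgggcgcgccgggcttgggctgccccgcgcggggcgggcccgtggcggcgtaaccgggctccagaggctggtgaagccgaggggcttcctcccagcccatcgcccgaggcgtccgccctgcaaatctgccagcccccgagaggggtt
MXI1 start 3: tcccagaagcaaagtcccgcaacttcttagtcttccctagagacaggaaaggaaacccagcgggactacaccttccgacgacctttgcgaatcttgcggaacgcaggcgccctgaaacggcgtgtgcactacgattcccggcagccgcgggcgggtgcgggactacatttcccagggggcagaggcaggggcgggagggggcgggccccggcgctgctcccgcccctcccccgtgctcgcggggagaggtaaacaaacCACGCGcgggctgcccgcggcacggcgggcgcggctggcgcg
The core E-box CACGTG is in none of these windows on either strand, and the third holds CACGCG once, beginning 8 bases after the start. FPKM per gene pools all starts, so which of the 3 starts was lower was not measured. GENCODE lists 7 protein-coding transcripts of MXI1, with 7 different starts.

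Promoter windows of the same kind were read for 9 of the 10 genes, 14 in all. No window of MYC was among them, so the motif counts below leave out the target gene. CACGTG, which reads the same on both strands, was in 3 of the 14, those of MLX, MNT and MXD4, against 7.26% of 35116 promoter windows in the table. CACGCG or its reverse complement CGCGTG was in 3 of the 14, those of MXD3, MXI1 and MGA, against 11.4% of all windows. These are letter matches, with no measurement of binding. The windows of the genes with CACGTG are printed with that motif in capitals, at chr17:42566850-42567149 (MLX, plus strand), chr17:2401011-2401310 (MNT, minus strand) and chr4:2262060-2262359 (MXD4, minus strand).
MLX: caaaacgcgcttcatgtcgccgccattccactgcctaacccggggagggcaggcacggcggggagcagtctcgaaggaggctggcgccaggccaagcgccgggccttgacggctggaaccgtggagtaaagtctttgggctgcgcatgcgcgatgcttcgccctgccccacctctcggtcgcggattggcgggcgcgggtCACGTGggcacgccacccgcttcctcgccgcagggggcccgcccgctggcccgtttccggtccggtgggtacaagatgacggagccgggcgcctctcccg
MNT: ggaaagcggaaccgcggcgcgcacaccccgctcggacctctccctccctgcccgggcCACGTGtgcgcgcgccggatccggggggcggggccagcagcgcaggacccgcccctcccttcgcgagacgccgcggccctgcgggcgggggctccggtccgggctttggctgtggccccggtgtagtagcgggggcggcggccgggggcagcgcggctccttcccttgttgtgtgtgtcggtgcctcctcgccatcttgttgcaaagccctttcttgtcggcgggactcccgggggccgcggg
MXD4: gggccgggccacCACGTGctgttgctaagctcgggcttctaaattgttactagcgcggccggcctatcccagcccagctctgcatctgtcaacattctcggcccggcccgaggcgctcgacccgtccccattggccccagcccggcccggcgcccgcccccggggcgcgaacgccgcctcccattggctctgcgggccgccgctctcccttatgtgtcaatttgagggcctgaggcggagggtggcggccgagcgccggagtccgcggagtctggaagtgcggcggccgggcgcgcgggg
The motif begins 50 bases before the start in MLX, 193 before it in MNT and 238 before it in MXD4. The log2 changes of these 3 genes were −0.12, −0.03 and −0.08. Among tested members with windows but no CACGTG, MAX changed by −0.29, MXI1 by −0.88, MXD1 by 0.14, MXD3 by 0.13 and MGA by −0.12. A link between the motif and the change was not tested.

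**Figure D1:**
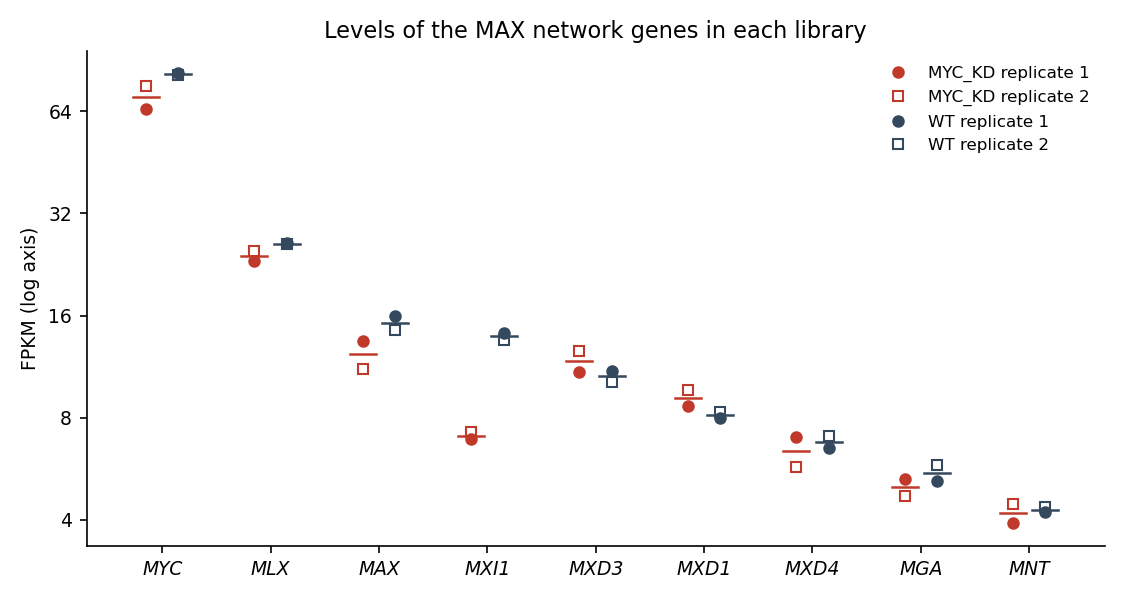
FPKM (log axis) of the 9 network genes that passed the filter, in MYC_KD (red) and WT (dark) libraries, with filled circles for replicate 1, open squares for replicate 2 and bars for the mean. MXI1 is the gene whose groups lie furthest apart, at 6.92 and 7.25 FPKM in MYC_KD against 14.2 and 13.6 FPKM in WT.

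MAX, the obligate partner (ENSG00000125952, chromosome 14, 65006174 to 65102695, minus strand), was lower in both libraries of the knockdown, with 13.5 and 11.2 FPKM in MYC_KD replicates 1 and 2, against 16.0 and 14.5 FPKM in WT replicates 1 and 2. The groups did not overlap, and the lower knockdown value was in replicate 2, where MYC was the less reduced. The log2 difference of −0.29 ± 0.13 (SE) had a 95% interval of −0.63 to 0.06 and did not pass 0.05 (limma adjusted p = 0.246). The ratio of MYC to MAX RNA was 4.82 and 6.79 in MYC_KD and 5.19 and 5.67 in WT, so the WT values lay inside the range of the knockdown pair.

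MLX (ENSG00000108788, chromosome 17, 42567068 to 42573239, plus strand) was the second most abundant member. It stood at 23.2 and 24.7 FPKM in MYC_KD and at 26.1 and 25.95 FPKM in WT. The groups did not overlap, but the log2 change of −0.12 had a 95% interval of −0.34 to 0.11 and did not pass (limma adjusted p = 0.443). MLXIP, the partner of MLX known as MondoA, stood at 13.15 and 13.0 FPKM in MYC_KD against 11.65 and 12.9 FPKM in WT, and the other such partner, MLXIPL, did not exceed 0.02 FPKM.

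The other MXD genes lay closer to WT. MXD1, known for its induction when cells differentiate (ENSG00000059728, chromosome 2, 69897688 to 69942945), stood at 8.64 and 9.65 FPKM in MYC_KD and at 8.01 and 8.32 FPKM in WT. As deposited it was the only member with both knockdown values above both WT values, at a log2 change of 0.14 (95% interval −0.15 to 0.44; limma adjusted p = 0.460). That separation depended on the scaling, since the groups of MXD1 overlapped with median of ratios scaling and with quantile normalization, where its log2 change was 0.10 and 0.05. MXD3 (ENSG00000213347, chromosome 5, 177301461 to 177312757), known in mouse as the MXD gene expressed in cycling cells, stood at 10.9 and 12.6 FPKM in MYC_KD and at 11.0 and 10.2 FPKM in WT. Its groups overlapped, and the log2 change was 0.13 (95% interval −0.17 to 0.44; limma adjusted p = 0.514). MXD4 (ENSG00000123933, chromosome 4, 2247432 to 2262294) stood at 7.03 and 5.74 FPKM in MYC_KD and at 6.50 and 7.06 FPKM in WT. The knockdown values of MXD4 bracketed the lower WT value, and its log2 change was −0.08 (95% interval −0.45 to 0.29; limma adjusted p = 0.757). None of these intervals reaches the log2 change of MXI1, whose own interval ends at −0.62. The differences between the genes were not themselves tested.

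MNT and MGA, the large repressors of the network, were the least abundant expressed members. MNT, the broadly expressed antagonist of MYC (ENSG00000070444, chromosome 17, 2384060 to 2401118), stood at 3.91 and 4.45 FPKM in MYC_KD and at 4.22 and 4.35 FPKM in WT. The WT values lay inside the knockdown range, and the log2 change was −0.03 (95% interval −0.38 to 0.32; limma adjusted p = 0.907). MGA, a T-box and MAX-binding repressor (ENSG00000174197, chromosome 15, 41621224 to 41773081), stood at 5.28 and 4.71 FPKM in MYC_KD and at 5.21 and 5.81 FPKM in WT. Its groups overlapped, at a log2 change of −0.12 (95% interval −0.46 to 0.22; limma adjusted p = 0.606). The intervals of both genes include changes in either direction.

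**Figure D2:**
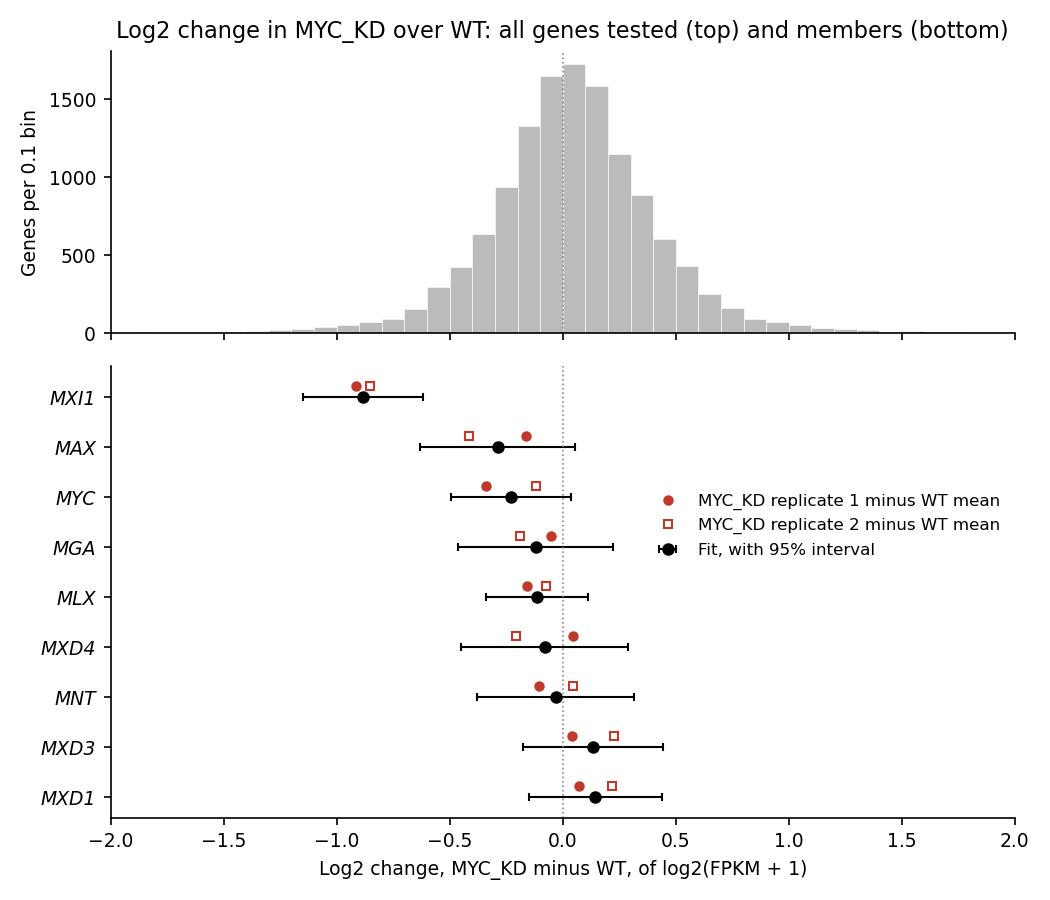
Top, the number of tested genes in each 0.1 bin of log2 change (MYC_KD minus WT, log2(FPKM + 1) scale), without the 21 genes beyond 2 in either direction. Bottom, the fitted log2 change of each member with its 95% interval (black) and the difference of each MYC_KD library from the WT mean (red), where the interval of MXI1, −1.15 to −0.62, is the only one that does not include 0.

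Across the network, 0 of the 9 members tested passed an adjusted p of 0.05, where 0% of all genes tested did (limma). At an unadjusted p under 0.05 there was 1 member, MXI1, lower in MYC_KD, where 25.9% of all genes tested passed and 11.5% passed as lower. At an adjusted p under 0.10 the count was 1, again MXI1, where 10.4% of genes passed. Groups did not overlap for 5 of 9 members, with MYC, MAX, MXI1 and MLX lower and MXD1 higher in MYC_KD. That is 55.6% of the members against 58.6% of all genes tested, with 25.2% lower and 33.4% higher, so as deposited the share was near the background. The members involved depended on the scaling. With equal column sums MAX and MXI1 were lower and MXD1 and MXD3 higher without overlap, and the groups of MYC and MLX overlapped. In that setting 62.8% of all genes did not overlap. With median of ratios scaling MYC, MAX, MXI1, MLX and MGA were lower and 0 members higher, and with quantile normalization 7 were lower (these 5, MXD4 and MNT) and 0 higher, where 60.0% and 58.7% of all genes did not overlap. MAX and MXI1 were lower without overlap under all 3 scalings. The median log2 change of the 9 members was −0.12, beside 0.04 over all genes tested. With equal column sums 5 members were lower and 4 higher, against 7 and 2 as deposited, since MNT and MXD4 turned to the other side of 0. MYC, MAX, MXI1, MLX and MGA were lower, and MXD1 and MXD3 higher, under all 13 alternatives.

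The order of the members by level moved mainly through MXI1. In MYC_KD the order was MYC, MLX, MAX, MXD3, MXD1, MXI1, MXD4, MGA, MNT and MYCN, and in WT it was MYC, MLX, MAX, MXI1, MXD3, MXD1, MXD4, MGA, MNT and MYCN. MXI1 was thus in place 6 in MYC_KD and in place 4 in WT. In MYC_KD the values of MAX and MXD3 overlapped, and so did those of MXI1 and MXD4, while the other neighbours were separate. In WT no neighbours overlapped, although MAX and MXI1 were close, at 14.5 to 16.0 and 13.6 to 14.2 FPKM.

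Summed over the partners of MAX (MYC, MYCN, MXI1, MXD1, MXD3, MXD4, MNT and MGA), RNA stood at 107.7 and 120.2 FPKM in MYC_KD against 132.1 and 131.3 FPKM in WT. The 6 antagonists alone summed to 42.7 and 44.4 FPKM in MYC_KD and to 49.2 and 49.3 FPKM in WT. MYC therefore held 60.3% and 63.1% of partner RNA in MYC_KD replicates 1 and 2, against 62.8% and 62.4% in WT, and the WT shares lay between the knockdown shares. As RNA, the knockdown did not separate from WT in the balance of MYC to the antagonists together. Within the antagonists the mix did differ, since MXI1 made up 16.2% and 16.3% of their RNA in MYC_KD against 29.0% and 27.5% in WT. MXD3 held 25.6% and 28.3% in MYC_KD against 22.4% and 20.7% in WT, and MXD1 held 20.2% and 21.7% against 16.3% and 16.9%. MXI1 was thus the most abundant antagonist in both WT libraries, and MXD3 in both MYC_KD libraries. The shares are parts of the same sum, so a lower MXI1 raises the share of genes that have not changed. The FPKM values of MXD3 overlapped between the groups. The ratio of MYC to MXI1 RNA was 9.39 and 10.5 in MYC_KD and 5.82 and 6.04 in WT. These shares describe RNA only, and no test is given for sums or ratios over the members.

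**Figure D3:**
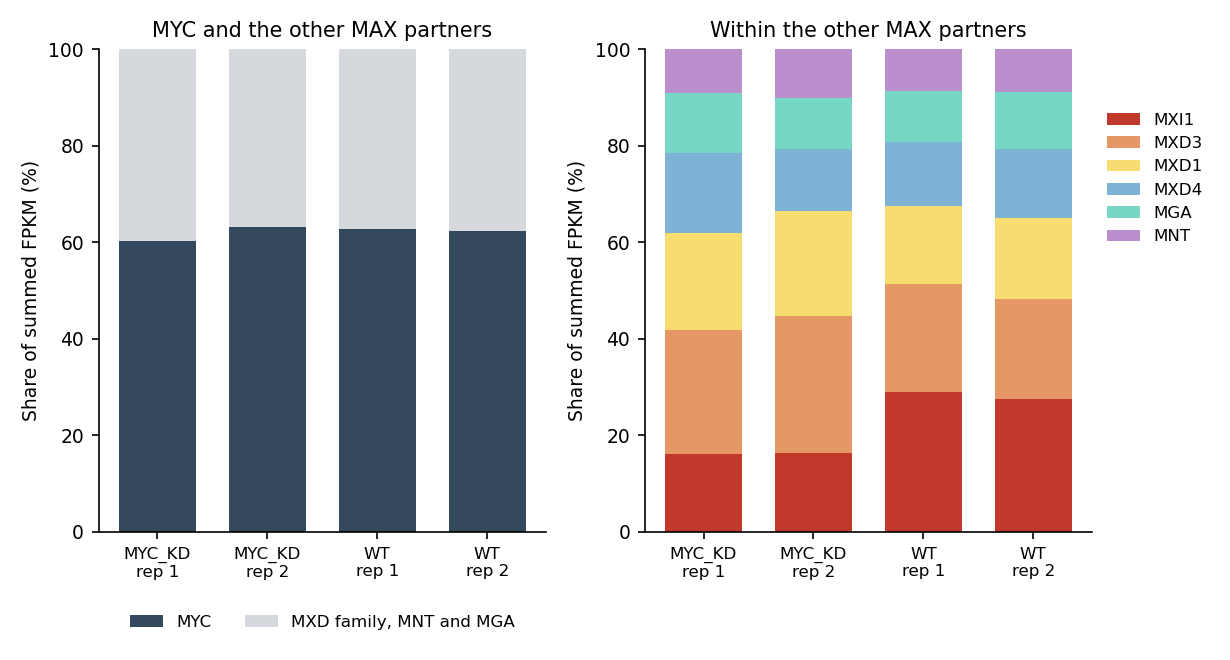
Share of summed FPKM (%) in each library, with MYC against the MXD genes, MNT and MGA together (left) and each of those 6 genes among them (right). MYC held 60.3% and 63.1% in MYC_KD against 62.8% and 62.4% in WT, while MXI1 held 16.2% and 16.3% of the antagonists' RNA in MYC_KD against 29.0% and 27.5% in WT.

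The genes whose pattern over the 4 libraries lay closest to that of MYC were IPO11, an importin, ZCCHC17, BRI3BP, TP63, a transcription factor of squamous epithelium, and RSPH3, at Euclidean distances of 0.02 to 0.03 on the centred log2 scale among 9585 genes with a mean of at least 5 FPKM. IPO11 stood at 12.6 and 14.5 FPKM in MYC_KD against 16.1 and 15.9 FPKM in WT. The genes closest to MXI1 were PIM1, a serine/threonine kinase, GALNT18, NME4, FAM129A and MYBBP1A, a nucleolar protein that binds MYB, at distances of 0.04 to 0.08. PIM1 stood at 24.7 and 25.0 FPKM in MYC_KD against 47.3 and 46.5 FPKM in WT, a log2 change of −0.89 (limma adjusted p = 0.0556). With only 4 libraries such likeness is a description of these values.

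Genes that work with the network were followed as lists, in which 0 genes passed an adjusted p of 0.05 (limma). Among 17 coactivators and cofactors of MYC, 6 were lower and 2 higher in MYC_KD with groups that do not overlap, at a median log2 change of −0.04. The sign of that median depended on the library, with a median difference from the WT mean of 0.13 in MYC_KD replicate 1 and −0.08 in MYC_KD replicate 2. RUVBL1, an ATPase of chromatin complexes that bind MYC, stood at 46.6 and 37.7 FPKM in MYC_KD against 69.3 and 65.7 FPKM in WT, with a log2 change of −0.67 (limma adjusted p = 0.0717). Among 20 genes that control MYC protein stability, 6 were lower and 5 higher, at a median of 0.0013, with GSK3B, a kinase that marks MYC for degradation, at 20.4 and 18.0 FPKM in MYC_KD against 26.2 and 26.3 FPKM in WT. Among 16 genes of the SIN3 and histone deacetylase corepressor, through which MXI1 and MNT act, 6 were lower and 2 higher, at a median of −0.03, with HDAC2 at 114 and 107 FPKM in MYC_KD against 134 and 133 FPKM in WT. Among 11 genes of the MGA complex, 2 were lower and 3 higher, at a median of 0.0071. RNF2, a Polycomb ubiquitin ligase, stood at 12.8 and 16.6 FPKM in MYC_KD against 21.2 and 22.3 FPKM in WT (limma adjusted p = 0.114). E2F6 was higher instead, at 25.6 and 28.0 FPKM in MYC_KD against 22.7 and 21.6 FPKM in WT (limma adjusted p = 0.172). Among 10 other factors that bind MYC or are linked to it, 4 were lower and 1 higher, at a median of −0.06. TFAP4, listed there as a MYC-induced factor, stood at 11.4 and 8.94 FPKM in MYC_KD against 14.3 and 14.7 FPKM in WT (limma adjusted p = 0.129). The first gene named from each list was the one with its smallest p, and each of these was lower in MYC_KD. The limma adjusted p was 0.0938 for GSK3B and 0.119 for HDAC2. In these lists between 45.5% and 55.0% of genes had groups that do not overlap, below the 58.6% of all genes tested.

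For MLX and MLXIP, 6 genes known as targets were read, and they did not move together. TXNIP, an inhibitor of glucose uptake, stood at 14.95 and 6.26 FPKM in MYC_KD against 23.1 and 23.7 FPKM in WT, a log2 change of −1.18 that did not pass (limma adjusted p = 0.153). Its relative ARRDC4 stood at 2.67 and 1.95 FPKM in MYC_KD against 3.14 and 3.43 FPKM in WT. KLF10, a zinc finger factor, was higher instead, at 37.6 and 36.6 FPKM in MYC_KD against 25.8 and 27.2 FPKM in WT, with a log2 change of 0.47 (limma adjusted p = 0.0672). The groups overlapped for the other 3 genes, ARRDC3, PFKFB3 and G6PC3. The median log2 change of the 6 was −0.26, and their median difference from the WT mean was −0.09 in MYC_KD replicate 1 and −0.30 in MYC_KD replicate 2.

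Known targets of MYC were read beside the network. Of 41 known MYC-induced genes tested, 35 were lower and 1 higher with groups that do not overlap, 87.8% beside 58.6% of all genes tested (25.2% lower and 33.4% higher), at a median log2 change of −0.60, although MYC RNA had a log2 change of −0.23. HK2, the first enzyme of glycolysis, stood at 11.0 and 11.75 FPKM in MYC_KD against 29.7 and 29.1 FPKM in WT (log2 change −1.30, limma adjusted p = 0.0556). The list's median difference from the WT mean was −0.48 in MYC_KD replicate 1 and −0.63 in MYC_KD replicate 2, while the lower MYC value was in replicate 1. Of 19 known MYC-repressed genes tested, 8 were higher and 7 lower, 78.9% beside the same 58.6%, at a median of 0.21. The list's median difference from the WT mean was 0.09 in MYC_KD replicate 1 and 0.13 in MYC_KD replicate 2. The genes with the smallest p went in both directions, with NDRG1, a gene that MYC proteins repress, at 6.25 and 13.2 FPKM in MYC_KD against 34.9 and 34.0 FPKM in WT (log2 change −1.81, limma adjusted p = 0.0709), ITGB1, an integrin chain, at 438 and 569.6 FPKM in MYC_KD against 325 and 319 FPKM in WT, and GADD45A, a stress-induced gene, at 17.6 and 15.2 FPKM in MYC_KD against 34.2 and 30.9 FPKM in WT. Both lists were drawn up with earlier results of these libraries known and are not independent evidence of a direction.

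**Figure D4:**
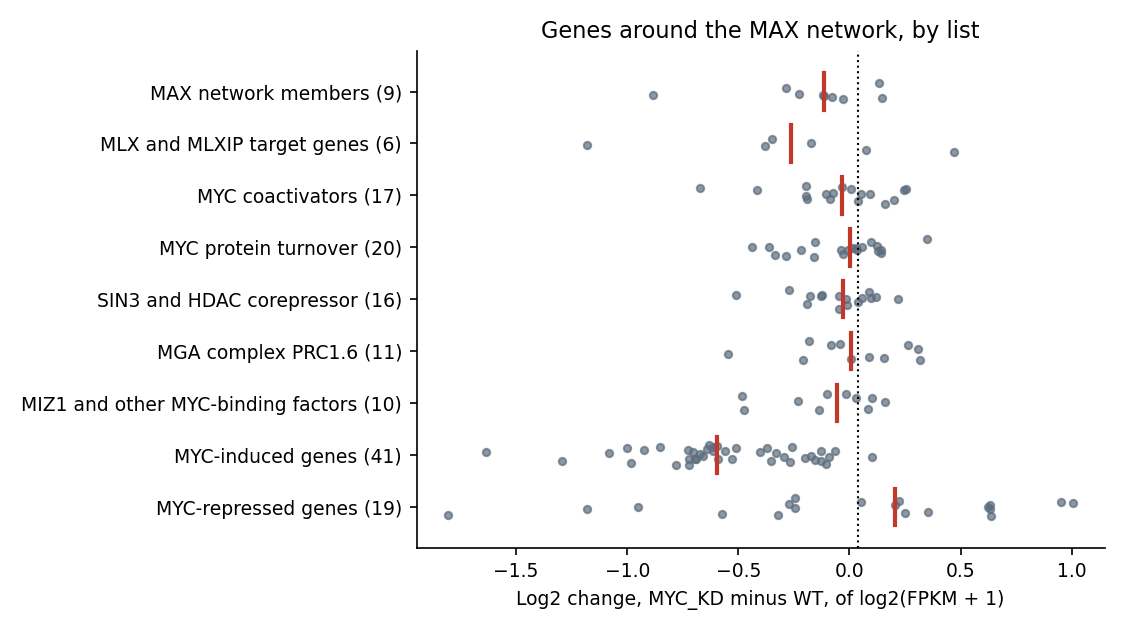
Log2 change (MYC_KD minus WT, log2(FPKM + 1) scale) of each gene (points) in the network and in lists around it, with the list's median (red bar), the number of genes tested in brackets and the median of all genes tested, 0.04, as a dotted line. The MYC-induced genes lie at a median of −0.60, and the coactivator, turnover, corepressor and MGA complex lists lie near 0, at medians of −0.04, 0.0013, −0.03 and 0.0071.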

How the data were processed

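The authors deposited expression values per gene with 2 decimals, in 1 column per library, which are read here as FPKM. The unit was inferred from the values, whose columns summed to 674328 to 739335, and TPM with rows left out cannot be fully excluded. STAR and RSEM were used, per the submitters' processing notes, and versions, genome build, annotation and strand setting are not given in the sources used. RSEM estimates share reads between overlapping and near-identical genes, which makes single values uncertain there.

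Of 344810 rows, the 53777 Ensembl rows were used. The 12953 of them that reached 1 FPKM in 2 or more libraries entered a fit of log2(FPKM + 1) by limma 3.58.1 in R 4.3.3 (eBayes with a mean trend, Benjamini-Hochberg adjustment over all genes tested, threshold 0.05). The members are rows of that fit. Log2 changes are MYC_KD minus WT, and the pseudocount of 1 understates the change of low genes. With no counts, no counting interval is given, and no count test was run. The fit was tested on simulated data. Groups do not overlap where the lowest value of one exceeds the highest of the other. Relative depth came from low FPKM of single-transcript genes 400 to 1500 bases long in GENCODE release 29. Each value was multiplied by the transcript length less a fixed number of bases, and the most common product was taken. Of 1537 to 1652 low values per library, 216 to 246 lay near it.

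The members and lists were chosen with earlier results of these data known. Named were every member, every gene of lists of up to 6 genes, some of the genes with the smallest p of the other lists, and the 5 genes closest to MYC and to MXI1. TXNIP is in 2 lists and COL1A1 in 2. Alternatives were the filter, pseudocount, scaling, replicate block, variance model, gene set, threshold and each library left out.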

Additional observations from a re-analysis of the deposited data

How the results depend on the processing

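At an adjusted p of 0.05, limma called 0 of 12953 genes, and 3354 at an unadjusted p under 0.05 and 1349 at an adjusted p of 0.10. At 0.05 it called 310 of 9593 genes with a mean of at least 5 FPKM and 308 of 12953 with median of ratios scaling. With protein-coding rows alone it called 385 of 11552. In each of these 5 settings 1 member, MXI1, was called, against 0 members as reported. Leaving out 1 library gave 0 to 3413 genes and 0 to 2 members, the 2 being MYC and MXI1 without MYC_KD replicate 2, where the spread comes from the WT pair. The members whose groups do not overlap numbered 5 to 9 with 1 library left out, beside 71.3% to 86.9% of all genes tested. Fewer samples make overlap rarer there. With 1 library left out the change of MYC lay between −0.34 and −0.12, of MAX between −0.41 and −0.16, of MXD1 between 0.07 and 0.22, of MXD3 between 0.04 and 0.23, of MLX between −0.16 and −0.07 and of MGA between −0.19 and −0.05. These extremes came from leaving out a MYC_KD library. The change of MLX was −0.02 with equal column sums. With equal column sums MXD4 was at 0.0029 and MNT at 0.047, on the other side of 0. With 1 library left out MXD4 lay between −0.21 and 0.047 and MNT between −0.11 and 0.044, above 0 without MYC_KD replicate 2 for MXD4 and without MYC_KD replicate 1 for MNT. The cause of these moves was not tested. The labels number the replicates but do not say whether the numbers pair libraries across the groups. The replicate differences of the groups did not correlate over genes (r = −0.0059), which shows no sign of a pairing but cannot exclude one. With the replicate block 0 genes and 0 members passed, and the change of MYC was −0.23 (limma adjusted p = 0.297). Depth is not known in fragments, which limits what can be said of MYCN and MYCL.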
